A study of Mus musculus with 6 samples.

Results

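Nr4a1, Nr4a2 and Nr4a3 are the 3 genes of the Nr4a family of orphan nuclear receptors, and they are described here in adrenal glands of a hypertensive mouse strain (BPH) and a hypotensive one (BPL). Members were found as the probe sets whose only gene symbol in the platform's annotation is one of these 3 names. This gave 3 probe sets for 2 genes, of 12422 probe sets that are not controls: 102371_at for Nr4a1, and 92248_at and 92249_g_at for Nr4a2. The annotation used here assigns no probe set to Nr4a3, so Nr4a3 has no value. The genes were chosen by their higher signals in BPH arrays, so the difference between strains is given for them as a description, with no test.

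The study measured total RNA of adrenal glands from male mice aged 12 weeks on Affymetrix arrays, 3 arrays of each strain, to compare transcripts between strains that were selected for high and for low blood pressure. No treatment or allele is named, and all 6 samples share sex, age and tissue. The labels name 3 mice per strain but not which RNA, of 1 animal or of a pool, went on each array, so the spread between arrays may be partly technical. Values are MAS5 signal intensities, scaled to equal array medians, and differences are on the log2(signal + 204) scale, which understates the change of dim genes. In RNA of a whole gland, fewer cells of a type and less RNA per cell cannot be told apart.

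Nr4a proteins have no known natural ligand that their activity depends on, and their level is set mainly by how fast their genes are transcribed. The genes are immediate early genes: cyclic AMP and calcium signals switch them on through CREB and MEF2 without new protein synthesis. As monomers they bind the NBRE element, and Nr4a1 and Nr4a2 can also pair with the retinoid X receptors. In the adrenal cortex, adrenocorticotropic hormone and angiotensin II induce them, and they act on promoters of steroid enzyme genes. In dopamine neurons Nr4a2 is needed for expression of Th, the first enzyme of catecholamine synthesis.

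The promoters of the 3 genes are shown because Nr4a1 and Nr4a2 were higher together and because cyclic AMP acts on them through short sites near the start. Each sequence is the 250 bases before the gene's annotated start, from RefSeq on build GRCm38.p6, read 5′ to 3′ on the gene's own strand. Capitals mark the core of the cyclic AMP response element (CRE), TGACG, or its reverse complement. The windows are chr15:101266596-101266845 on the plus strand for Nr4a1, chr2:57124004-57124253 on the minus strand for Nr4a2 and chr4:48045055-48045304 on the plus strand for Nr4a3. The start used for Nr4a1 is not the outermost start of its annotated locus.
Nr4a1: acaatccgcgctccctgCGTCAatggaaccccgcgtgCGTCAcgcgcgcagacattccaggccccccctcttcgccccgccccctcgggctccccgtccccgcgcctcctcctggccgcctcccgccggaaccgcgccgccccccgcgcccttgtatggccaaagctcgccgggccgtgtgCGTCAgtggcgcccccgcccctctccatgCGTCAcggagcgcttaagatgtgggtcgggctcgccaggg
Nr4a2: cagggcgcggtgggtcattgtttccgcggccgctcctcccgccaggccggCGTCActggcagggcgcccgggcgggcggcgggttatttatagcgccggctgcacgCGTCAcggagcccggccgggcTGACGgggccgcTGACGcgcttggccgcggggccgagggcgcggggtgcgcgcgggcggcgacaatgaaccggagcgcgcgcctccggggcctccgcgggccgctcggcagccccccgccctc
Nr4a3: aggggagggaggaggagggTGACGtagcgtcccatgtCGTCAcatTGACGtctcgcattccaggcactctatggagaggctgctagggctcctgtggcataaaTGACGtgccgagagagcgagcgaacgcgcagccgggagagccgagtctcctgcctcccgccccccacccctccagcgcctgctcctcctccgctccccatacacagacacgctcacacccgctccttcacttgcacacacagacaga

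Each of the 3 windows held 4 matches to the CRE core. Matches to the core began 233, 213, 69 and 40 bases before the start of Nr4a1, all on the reverse strand. Those of Nr4a2 began 200, 144, 123 and 111 bases before the start, and those of Nr4a3 began 231, 213, 205 and 147 bases before it. Among 32851 promoter windows of the same length, 17.8% held the core at least once on either strand, and 45 windows, or 0.137%, held 4 or more. The core contains CG, and the windows were rich in G and C, at 74.4% for Nr4a1, 80.0% for Nr4a2 and 63.6% for Nr4a3. Of the 9178 windows with at least 60% G and C, 27.1% held the core and 0.370% held it 4 or more times.

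The longest stretch that the Nr4a1 and Nr4a2 windows had in common was 12 bases, gcgtcacggagc, which contains a CRE core. It began 41 bases before the start of Nr4a1 and 145 before that of Nr4a2. Nr4a1 and Nr4a3 had 10 bases in common, cattccaggc, 198 and 195 bases before their starts. The GC box GGGCGG, on either strand, matched 3 times in Nr4a1, 4 times in Nr4a2 and 1 time in Nr4a3, and it was in 32.7% of all windows. The full palindromic CRE TGACGTCA, which contains the core, had no match in the 3 windows and was in 1.55% of all windows. The NBRE, AAAGGTCA, had no match either and was in 1.34% of all windows, and the same held for the AP-1 site TGANTCA (6.75%) and the CArG box (1.47%). The consensus MEF2 site, searched with either pyrimidine first and either purine last, matched 1 time, as ttatttatag in Nr4a2, 167 bases before the start, and was in 2.92% of all windows. With the narrower form that starts with C and ends with G it had no match in the 3 windows and was in 0.508% of all. These are matches of letters within 250 bases and do not show binding.

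**Figure D1:**
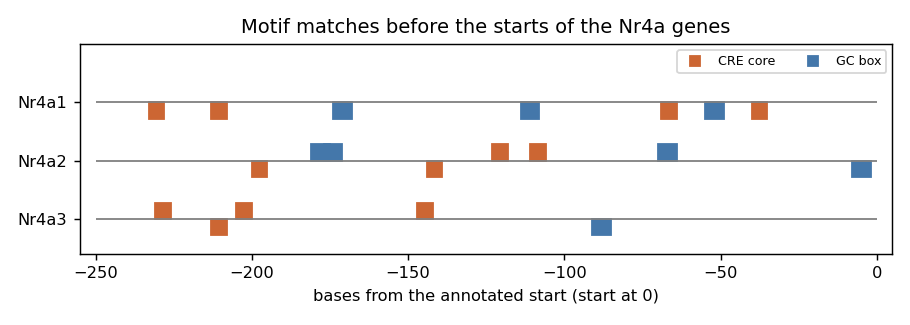
Positions of matches to the CRE core (orange) and the GC box (blue) in the 250 bases before the annotated starts of Nr4a1, Nr4a2 and Nr4a3, in bases from the start, with boxes above the line for the gene's own strand and below it for the reverse strand. Each gene has 4 CRE cores, and in Nr4a3 the nearest to the start begins 147 bases before it.

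Before the values, skeletal muscle signal in the BPL arrays needs mention. Summed signals of 11 skeletal muscle markers were 155138, 376140 and 27641 for BPL replicates 1 to 3. For the BPH arrays they were 5268 to 6521. Of the 10 tested markers, 7 (70%, beside 0.926% of all tested probe sets) were called lower in BPH. That count fell to 1 without BPL replicate 1, BPH replicate 1, BPH replicate 2 or BPH replicate 3 and with no filter, to 2 with a trended and robust variance, and to 4 when BPL replicate 2 was left out, alone or with BPL replicate 1, or when arrays were quantile normalized. Results are therefore given also without BPL replicates 1 and 2, where these sums were highest. BPL replicate 3 also lay above every BPH array, so leaving those 2 out does not remove the muscle signal. RNA integrity was read from control probe sets at both ends of Gapdh, whose log2 3'/5' ratio averaged -0.001 ± 0.050 over BPL arrays against 0.169 ± 0.074 over BPH arrays (SD, n = 3). For Actb it averaged 0.856 ± 0.057 and 1.08 ± 0.16. Both ratios were higher in all 3 BPH arrays than in any BPL array (2-sided exact permutation test, p = 0.1 each, the smallest that 3 against 3 arrays allow). Their part in the results was not tested. The 8 measured adrenal cortex markers, among them Star, Cyp11a1 and Cyp21a1, had summed signals of 551170 to 719425 in BPL and 682911 to 798027 in BPH. By limma 0 of the 8 were called, with 2 at an unadjusted p under 0.05, as were 1533 of all 7453 tested probe sets.

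Nr4a1, also known as Nur77, was first found as a gene that growth factors switch on, and is induced in steroid-making cells by their trophic hormones. Scaled signals of its probe set were 18976, 26933 and 22281 for BPL replicates 1 to 3, against 68573, 65770 and 64354 for BPH replicates 1 to 3. All BPH arrays lay above all BPL arrays, and the lowest BPH signal was 2.39 times the highest BPL signal. The BPL mean was 22730 ± 3998 and the BPH mean 66232 ± 2147 (SD, n = 3), a ratio of 2.91, and the log2 difference was 1.55 ± 0.17 (SE). The coefficient of variation over arrays was 17.6% in BPL and 3.24% in BPH. The highest signal of any probe set was between 137437 and 172399 on the 6 arrays, and a difference near the top of the range can be compressed.

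Nr4a2, or Nurr1, is the receptor required for midbrain dopamine neurons and is also induced in glomerulosa cells, the aldosterone-making cells, by angiotensin II. Probe set 92248_at gave 875, 784 and 674 for BPL replicates 1 to 3, against 9560, 9531 and 5466 for BPH replicates 1 to 3. The strains did not overlap, and BPH replicate 3 stood below the other BPH arrays. The means were 778 ± 101 and 8186 ± 2356 (SD, n = 3), a ratio of 10.5 and a log2 difference of 3.06 ± 0.23 (SE).

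The other Nr4a2 probe set, 92249_g_at, is listed in the annotation under the same GenBank sequence. It gave 534, 364 and 336 for BPL replicates 1 to 3, against 6837, 8466 and 4796 for BPH replicates 1 to 3. Its BPL arrays lay in the same order as for 92248_at, and BPH replicate 3 was again the lowest of its strain. The means were 411 ± 107 and 6700 ± 1839 (SD, n = 3), a ratio of 16.3 and a log2 difference of 3.47 ± 0.23 (SE). The signal of 92248_at divided by that of 92249_g_at was 1.64, 2.15 and 2.01 in the BPL arrays and 1.40, 1.13 and 1.14 in the BPH arrays, so the probe sets gave different sizes for the same gene. A test of the members' differences is not given, because these are the values they were chosen by.

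**Figure D2:**
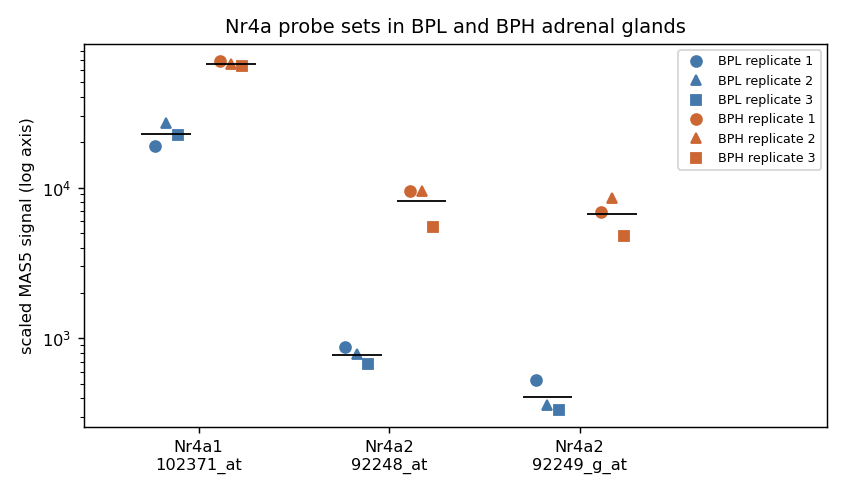
Scaled MAS5 signals (log axis) of the 3 Nr4a probe sets on each array, BPL in blue and BPH in orange, with marker shapes for replicates 1 to 3 and black lines for the mean of 3 arrays. In each probe set the 3 BPH arrays lie above the 3 BPL arrays, and BPH replicate 3 is the lowest of its strain. Levels of different probe sets are not comparable.

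Nr4a2 differed more between the strains than Nr4a1 did. On each array the log2 value of Nr4a1 was subtracted from that of 92248_at, and this difference was -4.15, -4.78 and -4.68 for BPL replicates 1 to 3, against -2.82, -2.76 and -3.51 for BPH replicates 1 to 3. The strains did not overlap, and the increase of Nr4a2 exceeded that of Nr4a1 by 1.51 ± 0.31 (SE) on the log2 scale. For 92249_g_at it exceeded it by 1.92 ± 0.35. In a ranking of 7453 tested probe sets by log2 difference, 92249_g_at was number 5, 92248_at number 14 and Nr4a1 number 72. The ranks describe the contrast that the members were chosen by, and 92249_g_at passed the filter through its BPH signals.

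All 3 probe sets were among those that passed the limma fit over the whole table. That fit called 306 of 7453 probe sets (4.11%), of which 237 (3.18%) were higher and 69 (0.926%) lower in BPH. Before adjustment, 1533 of the 7453 had a limma p under 0.05, and the unadjusted counts of gene lists are to be read beside this. Because the members were chosen on this contrast, nothing is read from their count. Without BPL replicates 1 and 2 the log2 differences were 1.56 for Nr4a1 and 3.21 and 3.64 for the Nr4a2 probe sets, as large as with them. Across all tested probe sets the median log2 difference was 0.08, and 194 of them (2.60%) were at least 1.

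Within BPH, replicate 3 had the lowest signal for all 3 Nr4a probe sets. The same array was lowest for 3735 of the 7453 tested probe sets (50.1%) and for 144 of the 237 called higher (60.8%). For Nr4a1 the BPH arrays differed by at most 1.07-fold, and for the Nr4a2 probe sets by 1.75-fold and 1.77-fold.

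Genes that cyclic AMP and CREB are known to induce were largely higher in BPH with the Nr4a genes. Of 38 such genes listed, 21 were tested, 16 were called higher and 0 lower by limma, and 5 did not pass. That is 76.2% of the tested genes, beside 4.11% of all tested probe sets. The median log2 difference of these genes was 1.76, beside 0.08 over all tested probe sets. Many of them are general immediate early genes that other signals induce too, and the list was drawn up with earlier results of these data known, so its direction is not independent evidence. Between 11 and 16 were called higher in the alternative settings, with 11 without BPL replicate 2, BPH replicate 1, BPH replicate 2, or BPL replicates 1 and 2 together. With no filter on dim probe sets 11 were called higher, at a median of 1.07.

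Crem, whose short product ICER is made from a promoter within the gene that CREB activates, gave 1886, 1355 and 2413 for BPL replicates 1 to 3, against 17005, 16875 and 15791 for BPH replicates 1 to 3. The strains were far apart, and Crem rose by 3.04 ± 0.20 on the log2 scale (limma with Benjamini-Hochberg adjustment, adjusted p = 1.6e-04), while its other probe set rose by 2.65 ± 0.25 (limma adjusted p = 0.0011). The array table does not separate ICER from the full-length Crem products.

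Gem, a small GTPase that restrains calcium channels, averaged 1012 ± 129 over BPL and 8946 ± 1738 over BPH arrays (SD, n = 3) and rose by 2.90 ± 0.18 on the log2 scale (limma adjusted p = 1.4e-04). Rgs2, which shortens signalling by Gq-coupled receptors such as that of angiotensin II, averaged 12193 ± 1044 over BPL and 36305 ± 3606 over BPH arrays (SD, n = 3) and rose by 1.56 ± 0.16 (limma adjusted p = 0.0013). The AP-1 subunits Fos, Fosb and Junb rose by 3.46, 1.84 and 3.41, and the zinc finger factors Egr1 and Egr2 by 3.16 and 2.02. The other Junb probe set rose by 5.10, from dim BPL signals of 194 to 387, and passed the filter through its BPH signals. The growth suppressor Btg2 rose by 1.94, the kinase-inactivating phosphatase Dusp1 by 1.87 and the clock gene Per1 by 1.15. The 5 that did not pass were Nfil3 at 0.53 ± 0.15, Penk at 0.37 ± 0.17, Odc1 at 0.36 ± 0.20, Pck1, the gluconeogenic enzyme, at 0.03 ± 0.22 and Inhba at -0.18 ± 0.19.

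The CRE core was also common before the starts of these genes, called or not. They were listed because cyclic AMP and CREB induce them, so a frequent core is no independent result. RefSeq windows were matched for 16 of the 21 tested genes, and 14 of the 16 held the core at least once, beside 19.8% of 27022 genes outside the family. These windows were often rich in G and C, with at least 60% in 12 of the 16, and among all windows that rich 27.1% held the core. Of the genes called higher 11 of 12 held it, and of those not called 3 of 4. Among the called, Cebpb and Dusp1 held it 3 times, and Cited2 was the gene without it. None of the 16 held it 4 times as the Nr4a genes do. Egr1, Gem, Crem and Ier2, all called higher, had no matched window, and neither did a gene among those not called.

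**Figure D3:**
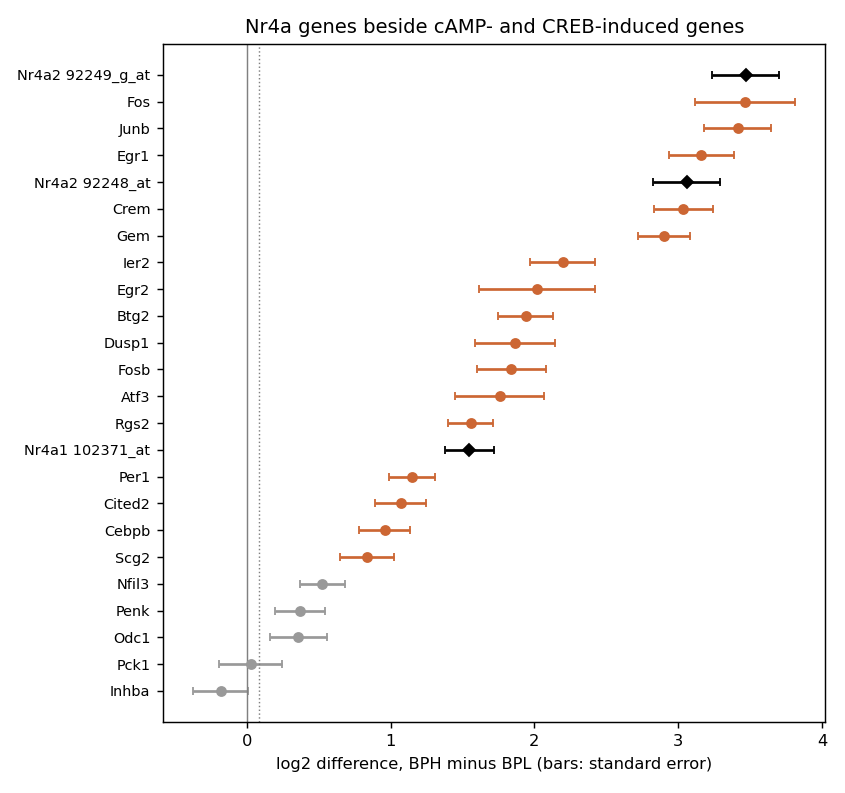
Log2 difference, BPH minus BPL, with its standard error (bars), for the 3 Nr4a probe sets (black diamonds) and the 21 tested cyclic AMP- and CREB-induced genes (orange, called by limma; grey, not called), with the solid line at 0 and the dotted line at the median of all tested probe sets, 0.08. The 92248_at probe set of Nr4a2 sits at 3.06 beside Egr1 and Crem, and Nr4a1 sits at 1.55 beside Rgs2.

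Of 15 tested genes for receptors and kinases upstream of Nr4a transcription, 1 was called higher and 0 lower by limma, with a median log2 difference of 0.14. This is 6.67% of the list, near the 4.11% called over all tested probe sets. This gene was Mrap, which carries the ACTH receptor to the cell surface, at 0.92 ± 0.16 (limma adjusted p = 0.020). Mrap lost its call with no filter, without BPL replicate 1, BPL replicate 2, BPH replicate 1 or BPH replicate 2, and without BPL replicates 1 and 2 together, and 2 genes of this list were called without BPL replicate 3. The ACTH receptor itself, Mc2r, stood at 0.17 ± 0.15 (limma adjusted p = 0.56), with signals of 7668 to 8952 over BPL arrays and 8855 to 10425 over BPH arrays. For Agtr1a and Agtr1b, the angiotensin II receptors, no single-symbol probe set was found.

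Of 13 tested transcription factors and cofactors that act on Nr4a genes, the deacetylases Hdac5 and Hdac7 among them, 1 was called higher and 0 lower, with a median of 0.11. This is 7.69% of the list, near the 4.11% called over all tested probe sets. The called gene was Crem, which is also counted among the cyclic AMP-induced genes above. The coactivator Crebbp, at 0.55 ± 0.14, and the MEF2 factors Mef2a, at 0.11 ± 0.21, and Mef2d, at 0.31 ± 0.20, did not pass. The 3 probe sets of Creb1 were too dim to be tested. CREB, MEF2 and the kinases are controlled mainly by phosphorylation and location, which RNA levels do not show.

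Among nuclear receptors outside the family, 20 were tested and 0 were called in either direction by limma. An unadjusted p under 0.05 was found for 5 of them, 2 of these higher, beside 1533 of all 7453 tested probe sets. Log2 differences of the 20 receptors ran from -0.69 to 0.49, with a median of -0.14. The highest was Nr0b1 (Dax-1), a repressor of steroid genes, at 0.49 ± 0.19, and the lowest was Esrra, a regulator of mitochondrial genes, at -0.69 ± 0.18. The list has 1 probe set per gene, the brightest. Esrra, which was singled out after its value was seen, was called lower with the authors' scaling, after quantile normalization, with the lowest 60% not tested, with a trended and robust variance, and without BPL replicate 3.

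Nr5a1 (SF-1), the master factor of steroid-making cells, acts on several of the same steroid gene promoters as Nr4a1. Its brightest probe set differed by 0.44 ± 0.16 (limma adjusted p = 0.17), another by 0.96 ± 0.26 (limma adjusted p = 0.088), and the remaining tested one rose by 1.24 ± 0.23 (limma adjusted p = 0.023). These probe sets disagree on a call, and the called one lost its call with no filter, without BPL replicate 1, BPL replicate 2, BPH replicate 1 or BPH replicate 2, and without BPL replicates 1 and 2 together. Of the retinoid X receptors, the partners of Nr4a1 and Nr4a2, Rxra had -0.11 ± 0.31 and Rxrb -0.24 ± 0.17, neither called, and Rxrg was too dim to be tested. Nr3c1, the glucocorticoid receptor, which can oppose Nr4a1, was also too dim. Of 15 tested modulators of Nr4a proteins 0 were called by limma, with 3 at an unadjusted p under 0.05 (median 0.20). Akt1, a kinase that phosphorylates Nr4a1, was at 0.58 ± 0.19, and the apoptosis regulator Bcl2, a binding partner of Nr4a1, at -0.08 ± 0.16.

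**Figure D4:**
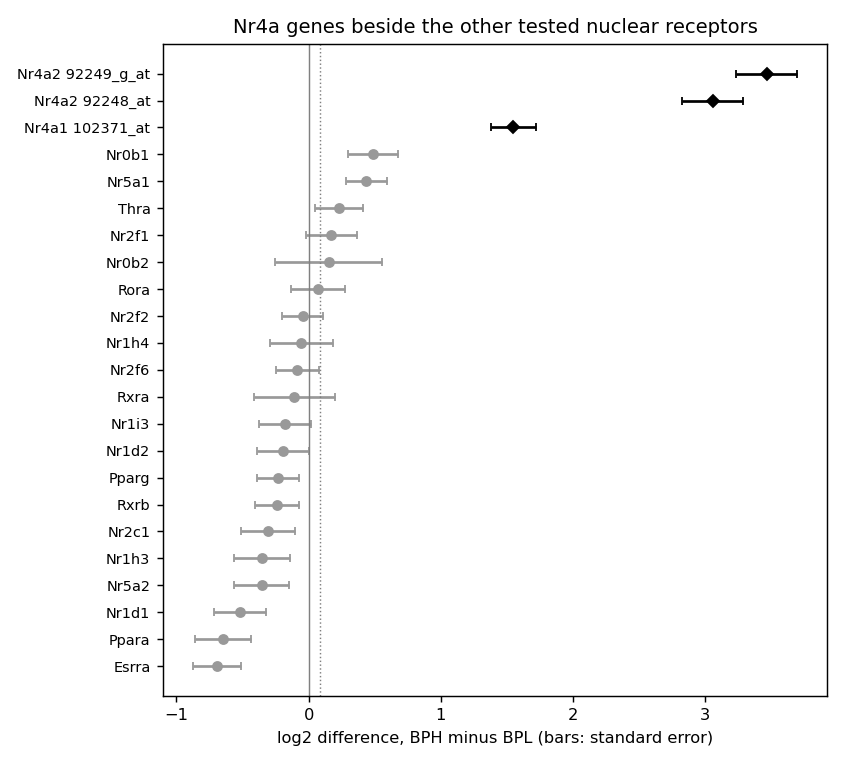
Log2 difference, BPH minus BPL, with its standard error (bars), for the 3 Nr4a probe sets (black diamonds) and the brightest probe set of each of 20 other tested nuclear receptors (grey, none called by limma), with the solid line at 0 and the dotted line at the median of all tested probe sets, 0.08. The other receptors lie between -0.69 and 0.49 and the Nr4a probe sets between 1.55 and 3.47.

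Genes described as Nr4a targets are given by group. Of 7 tested genes of steroid-making cells with Nr4a binding described, 0 were called by limma, with 1 at an unadjusted p under 0.05, and their median was 0.17. Cyp21a1, the 21-hydroxylase whose promoter was an early example of Nr4a1 binding, averaged 131027 ± 18124 over BPL and 148621 ± 21207 over BPH arrays (SD, n = 3), a difference of 0.18 ± 0.18 on the log2 scale. Scarb1, the receptor that takes up cholesterol from lipoproteins, was at 0.43 ± 0.17. The 2 probe sets of Cyp17a1 were too dim to be tested. No single-symbol probe set was found for Cyp11b1 or Cyp11b2, which make corticosterone and aldosterone.

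Of 5 tested catecholamine-related genes for which Nr4a2 regulation is described in neurons, 4 were called higher and 0 lower, with a median of 1.28. Calls made up 80% of this short list, beside 4.11% of all tested probe sets. Th gave 12088, 14506 and 19621 for BPL replicates 1 to 3, against 34660, 47889 and 30380 for BPH replicates 1 to 3. Th rose by 1.28 ± 0.24 (limma adjusted p = 0.023), and Gch1, which makes its cofactor, by 1.28 ± 0.17 (limma adjusted p = 0.0058). Th lost its call with no filter, without BPL replicate 1, BPL replicate 2, BPH replicate 1 or BPH replicate 2, and without BPL replicates 1 and 2 together. Aldh1a1, a retinaldehyde dehydrogenase of dopamine neurons, rose by 1.46 ± 0.19 (limma adjusted p = 0.0042), while 0.39 ± 0.18, without a call, was the value of its other probe set. Dlk1, a membrane protein of endocrine progenitors, rose by 1.06 ± 0.24 (limma adjusted p = 0.045), a call lost in 11 of the 15 alternative settings, among them the authors' scaling, quantile normalization, the replicate block and leaving out any single array but BPH replicate 3. The decarboxylase Ddc, at 0.27 ± 0.25, did not pass. Without BPL replicates 1 and 2, 0 of the 5 were called by limma, at a median of 0.91, and 2 were called without BPL replicate 1, BPL replicate 2, BPH replicate 1 or BPH replicate 2. When no filter was set, 14 genes of the list were tested, 2 were called higher and the median was 0.01, so the median of 1.28 is that of the genes bright enough to pass. Of 9 tested markers of chromaffin cells, which make catecholamines, 3 (33.3%) were called higher and 0 lower, Th being counted in both lists. That count was 1 without BPL replicate 1, BPL replicate 2, BPH replicate 1 or BPH replicate 2, and 0 without BPL replicates 1 and 2 together. The summed signal of 11 markers ran from 168002 to 250255 in BPL and from 257824 to 333672 in BPH. The part of the number of chromaffin cells in these values was not tested.

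Of 22 tested metabolic, immune and growth genes with Nr4a regulation described, 3 were called higher and 1 lower, with a median of 0.005, and the alternative settings gave 2 to 5 higher. Calls made up 18.2% of this list, beside 4.11% of all tested probe sets. Gadd45b, a stress sensor, rose by 3.68 ± 0.16 (limma adjusted p = 2.3e-05), its relative Gadd45g by 0.995 ± 0.170 (limma adjusted p = 0.018) and the lymphocyte factor Irf4 by 3.14 ± 0.32 (limma adjusted p = 0.0013). The size for Irf4 depends on the pseudocount, since its BPL signals, 79.4 ± 34.3 (SD, n = 3), lay below it: the difference was 2.47 with 2 times the pseudocount and 4.90 with a pseudocount of 1. It passed the filter through its BPH signals. Ucp3, a mitochondrial carrier of muscle and brown fat, fell by 1.32 ± 0.26 (limma adjusted p = 0.029), a call lost with no filter, without BPL replicate 1, BPL replicate 2, BPH replicate 2 or BPH replicate 3 and without BPL replicates 1 and 2 together. The skeletal muscle markers given above moved the same way as Ucp3, and their part in its value was not tested. Gadd45g lost its call with no filter, without BPH replicate 1, without BPH replicate 2 and without BPL replicates 1 and 2 together. Pomc was at 0.04 ± 0.20.

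The summed signal of 5 glomerulosa markers ran from 15361 to 25532 in BPL and from 31405 to 32119 in BPH, without overlap. The brightest, Dab2, weighs most in this sum, at 4937 to 11683 in BPL and 15285 to 18046 in BPH, and was not called (limma adjusted p = 0.12). The mean log2 value of the 5 was at most 12.17 in BPL and at least 12.18 in BPH. By limma 1 of the 5 was called higher and 1 lower, or 40% of them, beside 4.11% of all tested probe sets. The part of the number of glomerulosa cells in the values was not tested. A list of 9 tested glomerulosa genes, drawn up for the response to angiotensin II and potassium, holds the 5 markers too and is no separate view of these cells. Of the 9 genes, 2 were called higher and 1 lower (median 0.55), with Vsnl1 and Shh counted in both lists. Calls made up 33.3% of this list, beside 4.11% of all tested probe sets. By limma 7 of the 9 had an unadjusted p under 0.05, 6 of them higher, beside 1533 of all 7453 tested probe sets. Rgs2 is given above, the calcium sensor Vsnl1 rose by 1.36 ± 0.27 (limma adjusted p = 0.029), and Shh, a ligand made by cortical cells beneath the capsule, fell by 1.13 ± 0.18 (limma adjusted p = 0.014). Vsnl1 lost its call with no filter, after quantile normalization and without any single array but BPL replicate 3. Both Vsnl1 and Shh lost it without BPL replicates 1 and 2 together.

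The genes with array profiles nearest to Nr4a2 and Nr4a1 were found by setting each probe set to 0 at its BPL mean and taking the root mean square difference of log2 values over the 6 arrays. Nearest to 92248_at were Irf4 at 0.21, Egr1 at 0.22, Gem at 0.28, the antioxidant enzyme Srxn1 at 0.28 and the actin-capping protein Capg at 0.29. The distance from 92248_at to the other Nr4a2 probe set was 0.31, and to Nr4a1 it was 1.11. Irf4 gave 3712, 2436 and 1267 for BPH replicates 1 to 3, against 116, 73.0 and 48.7 for BPL replicates 1 to 3. Its place as nearest came with the pseudocount: it was number 42 with a pseudocount of 1 and number 6 with 2 times the main one, and its ratio of mean signals was 31.1, beside 10.5 for 92248_at. Egr1 and Gem were among the 5 nearest with all 3 pseudocounts, an alternative chosen after seeing the data. Egr1 gave 23446, 26798 and 15694 for BPH replicates 1 to 3, with replicate 3 lowest, as for Nr4a2. The other tested probe set of Srxn1 differed by -0.03 ± 0.15 and was not called, so Srxn1 rests on 1 of its probe sets. The other probe sets of Egr1 and Capg were too dim to be tested. Capg, like Irf4, passed the filter through its BPH signals.

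Nearest to Nr4a1 were Sirpa, an inhibitory receptor of myeloid and nerve cells, at 0.09, Rgs2 at 0.13, the co-chaperone Bag3 at 0.14, the WD repeat protein Wdr92 at 0.15 and the aldehyde dehydrogenase Aldh1a7 at 0.16. Sirpa gave 264, 411 and 264 for BPL replicates 1 to 3, against 1362, 1433 and 1315 for BPH replicates 1 to 3. BPL replicate 2 was the highest of its strain for Sirpa and for Nr4a1. The Sirpa probe set passed the filter through its BPH signals. Sirpa was number 106 with a pseudocount of 1 and number 6 with 2 times the main one, while Rgs2, Bag3 and Wdr92 stayed among the 5 nearest with all 3 pseudocounts. The other probe sets of Sirpa were too dim to be tested, and the other one of Bag3 rose by 2.47 ± 0.32 (limma adjusted p = 0.0042), more than the 1.64 of the probe set nearest to Nr4a1. Both the step between strains and the spread within them enter this distance, and the genes were picked for it, so no test of the closeness is given. None of the Nr4a1 neighbours was among those of Nr4a2, but this distance left no room for a shared one. The Nr4a2 probe set used for it lay 1.11 from Nr4a1. The farthest of the neighbours listed were Aldh1a7, at 0.16 from Nr4a1, and Capg, at 0.29 from Nr4a2. The lack of a shared neighbour therefore restates the different steps of Nr4a1 and Nr4a2, and nothing more is read from it.

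**Figure D5:**
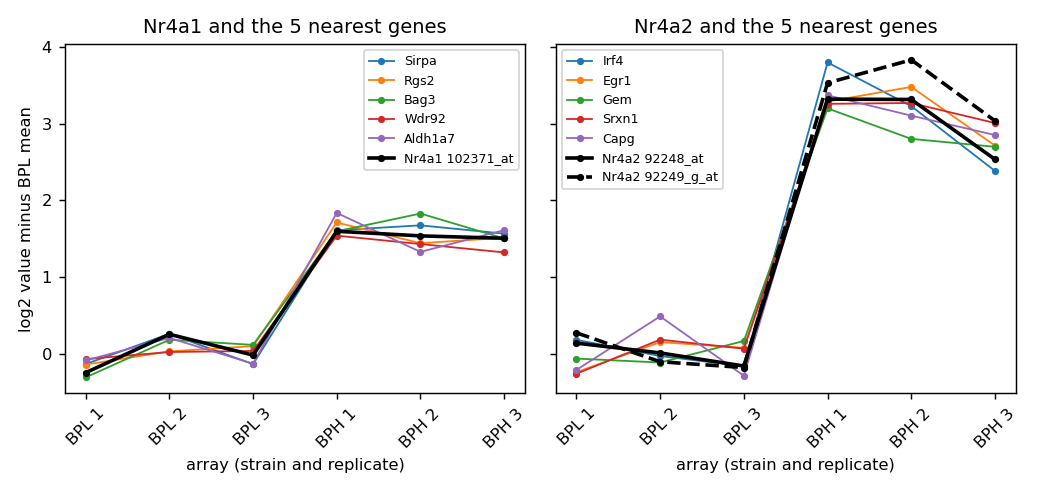
Log2 value on each array minus the BPL mean of the same probe set, for Nr4a1 (left, black) and Nr4a2 (right, black; 92249_g_at dashed) with the 5 genes of nearest profile in colour, over BPL and BPH replicates 1 to 3. Nr4a1 and its neighbours step by about the same amount on this scale, which for Sirpa and Irf4 depends on the pseudocount, and all 5 Nr4a2 neighbours have their lowest BPH value in replicate 3, as both Nr4a2 probe sets do. Both traits enter the distance the genes were picked by, and replicate 3 was lowest for 60.8% of the probe sets called higher.

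Leukocytes, endothelium and fat cells can express Nr4a genes too. Of 8 tested macrophage and other leukocyte markers 0 were called by limma (3 at an unadjusted p under 0.05), and the summed signal of 12 ran from 19982 to 21150 in BPL and from 20359 to 24701 in BPH. Of 8 endothelial markers 0 were called (3 at an unadjusted p under 0.05), with sums of 21622 to 32318 in BPL and 33625 to 37131 in BPH. Of 6 fat markers 0 were called (3 at an unadjusted p under 0.05), with sums of 180507 to 191907 in BPL and 138561 to 196189 in BPH. The endothelial sums did not overlap between strains, but the mean log2 values of the same markers did, at 11.22 to 11.73 in BPL and 11.64 to 11.77 in BPH. The part of any of these cells in the Nr4a signals was not tested.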

How the data were processed

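The deposited table holds linear signal intensities of 12488 probe sets on 6 arrays, which the authors computed with MAS5, as the submitters' processing notes name it. Its version and settings were not stated. Array medians of 945 to 1144 differed by 21.0%, above a tolerance of 10%, so arrays were scaled to the mean median, 1040. Values were log2(signal + 204), the pseudocount being the 20th percentile. The dimmest 40% and the 66 control probe sets were not tested, leaving 7453. BPH and BPL (3 arrays each) were compared with limma 3.58.1 in R 4.3.3, 2-sided, with Benjamini-Hochberg adjustment over all tested probe sets at 0.05. The model was tested on simulated data. Any pair of arrays had at most 1 value in common, so each counted as a sample.

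The members, gene lists and tests were chosen with earlier results of these data known. Gene lists use the brightest probe set of each gene. Named by rule were the Nr4a probe sets, from each list the called genes with the largest changes (4 at most), a set of receptors and steroid genes wherever measured, and the 5 nearest profiles of each gene. Further genes named from the lists were picked with their values known. Same-numbered arrays did not deviate together (r of -0.06, -0.05 and -0.18 for replicates 1, 2 and 3), so the numbers were not taken as pairs. Promoter sequences are RefSeq's. The alternatives changed scaling, pseudocount, filter, variance model, replicate block and arrays used.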

Additional observations from a re-analysis of the deposited data

How the results depend on the processing

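In all 15 alternative settings the log2 differences of the Nr4a probe sets stayed positive, between 1.39 and 1.68 for Nr4a1, 2.82 and 3.36 for 92248_at and 3.09 and 4.01 for 92249_g_at. The largest moves came with the pseudocount: 92249_g_at was at 4.01 with a pseudocount of 1 and at 3.09 with 2 times the main one. Of the counts over the table, 237 probe sets called higher and 69 lower became 106 and 21 with no filter, and 73 and 19 without BPL replicates 1 and 2 together. Leaving out 1 array in turn gave from 92 to 279 called higher and from 20 to 93 lower. With the replicate block, 172 were called higher and 67 lower, and the Nr4a differences were those of the main setting. The causes were not tested. Higher calls made up 77.5% of all calls, 66.3% with the authors' scaling and 67.3% after quantile normalization. The 3 arrays of each strain limit precision.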
